A study of Mus musculus with 10 samples.

Results

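During the conversion of mouse fibroblasts to pluripotent cells, 3520 regions of the genome gave an ATAC-seq peak at day 3, day 6 and day 9 and gave none in the starting fibroblasts or in embryonic stem cells. They were found by merging the overlapping peaks of all 10 deposited peak lists into 208851 regions and keeping those with a peak in both libraries of DAY3, DAY6 and DAY9 and in no library of MEF or ESC. They were 1.69% of the merged regions and 13.2% of the 26633 regions that had peaks in all 6 libraries of the 3 intermediate days. The members were chosen by the presence and absence of listed peaks at all 5 stages, so their pattern over the stages is a description and has no test. They are called transient regions below, as a name for this pattern of peaks only.

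ATAC-seq uses a transposase that cuts accessible DNA, and the authors deposited a peak list for each library, 2 libraries at each of 5 stages. The MEF libraries came from embryonic fibroblasts of the strain C57BL/6 x 129 with the genotype OKSM Col1a1/M2rtTA ROSA26, that is, a polycistronic cassette in Col1a1 that encodes the factors Oct4, Klf4, Sox2 and Myc and an activator in Rosa26 that needs doxycycline, kept in MEF medium without doxycycline. DAY3, DAY6 and DAY9 were such fibroblasts after 3, 6 and 9 days in ESC medium with doxycycline at 1 µg/ml and ascorbic acid at 50 µg/ml. ESC was the embryonic stem cell line V6.5 of the same strain label, a single line labelled with neither cassette nor activator, grown on irradiated feeder cells in ESC medium. DAY6 and DAY9 cells had been selected for SSEA1, a surface marker of early pluripotent cells, and the other stages were unsorted, so that day and sorting cannot be told apart at DAY6 and DAY9. By the labels, doxycycline and ascorbic acid were given at DAY3, DAY6 and DAY9 only, so an intermediate day cannot be told apart from this treatment. ESC is a separate line, so no sample shows the treated cells losing a peak after the treatment. Each assay took 50000 cells, and all 10 libraries carry the same batch name.

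Some factors of the cassette can bind closed as well as open chromatin. In fibroblasts that respond to the cassette, the mesenchymal program is shut down, epithelial genes are switched on, and the pluripotency network follows later. An enhancer is a stretch of DNA, often far from any promoter, that binds transcription factors and raises the activity of a gene. Reprogramming is known to open some enhancers only for a time, which is what the selection above looks for in accessibility.

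The stage labels were checked with marker genes, counting a gene when both libraries of a stage had a peak within 1 kb of either end of the gene. Of 8 fibroblast markers, 8 had such a peak in MEF, 5 in DAY3 and 4 each in DAY6, DAY9 and ESC, where Col3a1, Postn, Twist2 and Thy1 had none. Of 8 epithelial markers the counts were 0 in MEF, 2 in DAY3, 7 each in DAY6 and DAY9 and 6 in ESC, and of 8 pluripotency markers 2, 3, 6, 7 and 7. By these counts the sorted stages were closer to ESC than to MEF. Of 7 blood markers, included because some blood cells carry SSEA1, the same count of 1 was found at all 5 stages, and Ptprc, Elane, Mpo, S100a8, Itgam and Csf3r had no peak at any stage.

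The lists held 45497 to 88980 peaks. Relative depth, read from the background pileup that the fold and p-value of a peak imply, ran from 2.327 in DAY6 replicate 2 to 8.322 in MEF replicate 2. At the transient regions the DAY3 libraries differed from each other by 1.16 times counting noise and the DAY9 libraries by 1.30 times, against 2.82 times for the DAY6 libraries. The DAY3 pair and the DAY9 pair were therefore each counted as 1 sample, which left 4 samples over the 3 days. An exact permutation test of DAY3 against DAY6 and DAY9 could then not give a p below 0.25, and no test was run.

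Few transient regions lay at gene starts, and the sequences of those that did are the sequences of transient regions that can be shown here. RefSeq windows of 250 bases before a gene start (build GRCm38.p6, the assembly that UCSC calls mm10) lay wholly inside a transient region in 41 cases, in 38 regions, and 22 of the 41 belonged to protein-coding genes. The 4 protein-coding genes below are those whose regions ranked highest by the lowest of the 6 within-list percentiles of the authors' −log10 p. Each sequence is given 5′ to 3′ on the strand of its gene and ends at the base before the start. Capitals mark matches, on either strand, to the letters of the factor families named after them.

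Rnase1, chr14:51146768-51147017, minus strand, capitals mark Sox letters: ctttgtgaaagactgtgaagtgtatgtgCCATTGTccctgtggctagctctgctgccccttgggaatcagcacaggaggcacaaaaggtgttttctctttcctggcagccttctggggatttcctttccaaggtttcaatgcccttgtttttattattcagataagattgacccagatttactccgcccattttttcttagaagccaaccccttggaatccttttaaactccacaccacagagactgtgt

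Avil, chr10:127000459-127000708, plus strand, capitals mark Klf letters and then Runx letters: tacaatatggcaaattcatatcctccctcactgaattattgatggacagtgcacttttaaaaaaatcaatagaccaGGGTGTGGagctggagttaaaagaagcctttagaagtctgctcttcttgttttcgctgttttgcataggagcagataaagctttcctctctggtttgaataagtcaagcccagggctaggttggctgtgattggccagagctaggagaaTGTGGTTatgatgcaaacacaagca

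Tmprss5, the second of its windows, chr9:49102529-49102778, plus strand, capitals mark Runx letters and then AP-1 letters: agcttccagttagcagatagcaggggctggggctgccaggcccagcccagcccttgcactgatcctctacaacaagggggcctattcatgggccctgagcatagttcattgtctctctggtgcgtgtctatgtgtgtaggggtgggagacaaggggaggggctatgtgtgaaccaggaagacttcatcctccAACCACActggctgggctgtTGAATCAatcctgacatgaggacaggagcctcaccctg

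Ly6g6d, chr17:35081240-35081489, minus strand, capitals mark Sox letters and then octamer letters at 2 places: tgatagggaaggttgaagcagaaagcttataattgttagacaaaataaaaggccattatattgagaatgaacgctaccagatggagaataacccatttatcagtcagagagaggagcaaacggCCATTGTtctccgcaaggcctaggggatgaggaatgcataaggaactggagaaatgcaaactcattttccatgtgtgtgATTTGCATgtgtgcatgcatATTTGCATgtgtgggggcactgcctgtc

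Rnase1 encodes a secreted ribonuclease, Avil the actin-binding protein advillin, Tmprss5 a membrane-bound serine protease and Ly6g6d a membrane-anchored protein of the Ly6 family. The region at the start of Rnase1 had an authors' fold enrichment, the linear ratio of the peak's summit to its local background, of 10.1 and 9.50 at DAY3, 12.5 and 14.4 at DAY6, and 11.4 and 11.2 at DAY9. At the start of Tmprss5 the fold was 8.19 and 8.72 at DAY3, 15.0 and 15.0 at DAY6, and 15.9 and 15.1 at DAY9. With the fold as deposited, all DAY6 and DAY9 values lay above both DAY3 values in both regions. The DAY3 values were higher at Rnase1 than at Tmprss5.

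Letters of 6 motifs were searched on both strands of the 41 windows: GGGNGTGG for Klf factors, TGANTCA for AP-1, ATGCAAAT for the octamer bound by Oct4, ACAATGG for Sox factors, ACATTCC for Tead factors and TGTGGTT for Runx factors. A Klf match and a Runx match share the letters TGTGG and can overlap. AP-1 letters were in 14.6% of these windows (6 of 41), against 3.60% of 111 windows inside regions that opened at DAY3 and stayed open in ESC, 3.30% of 11349 windows inside regions with a peak in all 10 libraries and 6.75% of all 32817 windows in the table. Klf letters were in 14.6%, 32.4%, 21.7% and 15.9% of the same 4 sets. For Klf letters the share in transient regions was thus near that of all windows, and the kept regions stood higher. For the other motifs, in the same order of sets, the shares were 7.32%, 4.50%, 1.29% and 1.60% for octamer letters, 12.2%, 3.60%, 1.32% and 3.02% for Sox letters, 0%, 5.41%, 2.07% and 3.25% for Tead letters and 9.76%, 2.70%, 2.62% and 4.39% for Runx letters. Base composition differed between the sets as well: the median G+C content was 46.0%, 56.0%, 62.4% and 52.4% in the same order, and its part in the shares was not tested. The 41 windows overlap one another in places, no test was run on them, and a match is a description and not a binding site.

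The strength of the transient regions was then followed over the 3 days. Their median authors' fold was 5.23 and 5.26 in the DAY3 libraries, 7.19 and 7.21 in the DAY6 libraries and 6.25 and 6.26 in the DAY9 libraries. From the 5th to the 95th percentile the fold ran from 3.06 to 9.82 in DAY3 replicate 1, from 3.59 to 13.3 in DAY6 replicate 1 and from 3.00 to 13.3 in DAY9 replicate 1. As deposited, the median was lowest at DAY3. Against the median of the regions with a peak in every library it was lowest at DAY9, with log2 ratios of −0.42 and −0.43 at DAY3, −0.40 and −0.42 at DAY6 and −0.71 and −0.70 at DAY9, so that the order of the days depends on the scale. The median percentile of the −log10 p within its list was 57.7 and 57.4 at DAY3, 67.4 and 63.9 at DAY6 and 66.1 and 66.7 at DAY9. The lists differ in length, so these percentiles cannot show a change between days. In bulk libraries, fewer cells with an open region and less opening in each cell cannot be told apart.

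**Figure D1:**
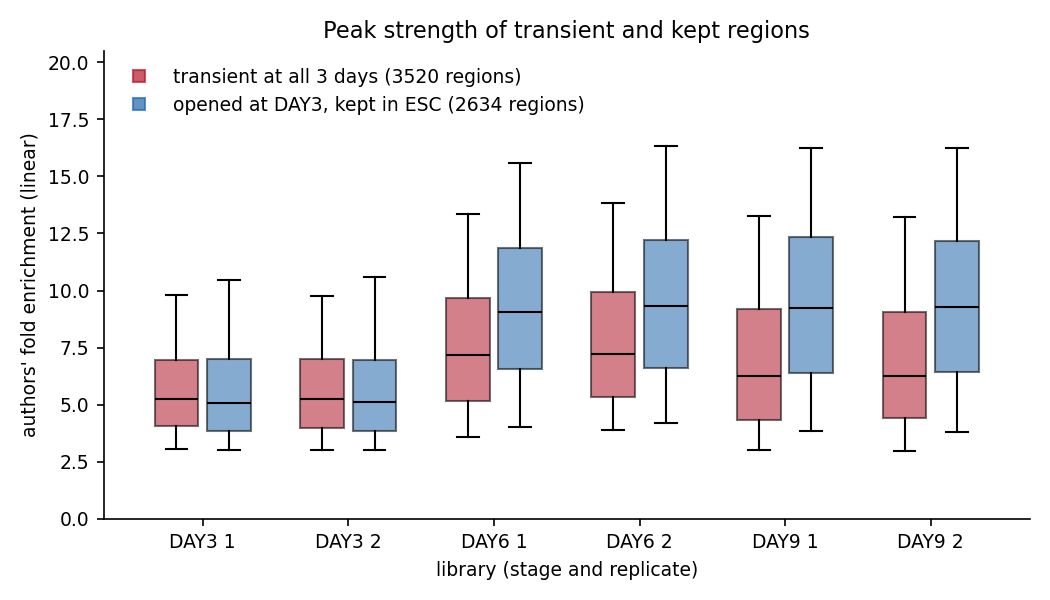
Boxes show the authors' fold enrichment (linear, y axis) of 3520 transient regions and of 2634 regions that opened at DAY3 and were kept in ESC, in each DAY3, DAY6 and DAY9 library (x axis); lines are medians, boxes the middle 50% and whiskers the 5th to 95th percentiles. The sets had close medians at DAY3 (5.23 and 5.08 in replicate 1) and separate ones at DAY9 (6.25 and 9.22 in replicate 1).

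For a reference, 2634 regions were taken that met the same conditions in MEF and at the 3 days but had a peak in both ESC libraries. At DAY3 their median folds, 5.08 and 5.10, were close to those of the transient regions, and at DAY6 (9.07 and 9.32) and DAY9 (9.22 and 9.27) they were higher. The log2 ratio of the medians, transient over kept, was 0.04 in each DAY3 library, −0.34 and −0.37 in the DAY6 libraries and −0.56 in each DAY9 library. At DAY9, 24.5% and 23.6% of the transient regions exceeded the median of the kept ones, against 51.4% and 51.2% at DAY3. Regions without an ESC peak thus had medians near those of the kept regions at DAY3 and lower ones at DAY9. The sets differ by rule only in their ESC peaks, and by the marker counts the sorted stages were closer to ESC than to MEF. The rule can therefore favour higher folds at DAY9 in the kept set, and the difference is a description only. The DAY3 value is close to 0 and became −0.03 when a library's peaks had to cover at least 50% of a region. The DAY6 value, −0.35 as a mean over both libraries, became −0.20 without MEF replicate 1, and with the stronger 50% of each list the DAY6 and DAY9 values became −0.19 and −0.32.

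Transient regions with peaks at fewer of the days had lower median folds. The 1044 regions with peaks at DAY3 alone of all stages had median folds of 3.65 and 3.67 there. The 2414 regions found at DAY6 and DAY9 but not at DAY3, MEF or ESC had 4.72 and 4.86 at DAY6 and 4.92 and 5.02 at DAY9. The rule asked for a listed peak in fewer libraries in these sets, and for none in the remaining ones. It thus favours weaker regions in them, and the lower medians are no finding about how long a region stays open. Whether these sets hold weak peaks that were missed in some libraries was not tested. The listing threshold bears on the rule itself: among the weakest listed peaks of the MEF and ESC lists, those with a −log10 p of 5 to 6, the 95th percentile of the fold was highest in MEF replicate 1, at 3.40. In 2478 of the 3520 transient regions (70.4%) even the lowest of the 6 folds was above 3.40, and the median of this lowest fold was 4.04.

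Between DAY3 and DAY9 single regions differed in both directions. With the fold as deposited, 1796 transient regions (51%) had both DAY9 values above both DAY3 values and 799 (22.7%) had both below, against 72.1% and 10.3% of all 26633 regions open in the 6 intermediate libraries. When the fold of each library was scaled to the median of 15359 regions found in every library, the balance turned, with 761 (21.6%) higher and 1879 (53.4%) lower, against 25.6% and 41.5% of the 26633. The kept regions had 2145 higher (81.4%) and 132 lower (5.01%) as deposited, and 1262 (47.9%) and 636 (24.1%) after scaling. On both scales the share of higher regions was smaller, and the share of lower regions larger, among the transient regions than among the kept regions and all regions open at these days. The rule on ESC peaks can favour this difference as well. By step and as deposited, 2097 transient regions were higher at DAY6 than at DAY3 and 178 lower, while at DAY9 614 were higher than at DAY6 and 1412 lower. After scaling, the DAY3 to DAY6 step had 849 higher and 1010 lower, and the DAY6 to DAY9 step 460 and 1716. The sort at DAY6 and DAY9 and the background pileup (5.304 and 5.27 at DAY3, 3.453 and 2.327 at DAY6, 7.327 and 7.372 at DAY9) differed along with the day, and their part in these counts was not tested.

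Regions just outside the rule were counted as well. With peaks in all 6 intermediate libraries, 1620 regions missed the rule by a peak in only 1 of the 4 MEF and ESC libraries, and the excluding peak was in ESC replicate 1 for 626, ESC replicate 2 for 493, MEF replicate 1 for 350 and MEF replicate 2 for 151. The median fold of the excluding peak was between 2.99 and 4.30, and its median percentile between 27.7 and 34.3, so these were weak peaks. A further 1913 regions with no MEF or ESC peak lacked a peak in only 1 intermediate library, most often DAY3 replicate 1 (513) or DAY3 replicate 2 (512). Without any MEF or ESC peak within 1 kb of the region either, 2885 transient regions remained.

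The strongest transient regions lay in or near genes of several kinds. The 12 with the highest value of the lowest within-list percentile had lowest percentiles of 91.7 to 96.5. First among them was a region of 1195 bp inside Sybu, the gene of syntabulin, which links vesicles to kinesin motors in neurons. This region, chr15:44700995-44702189, had folds of 11.5 and 12 at DAY3, 14.4 and 16.2 at DAY6, and 13.0 and 14.6 at DAY9. The lowest rank of its 6 values was percentile 96.5, and 2 further transient regions lay in the same gene. Inside Flrt2, which encodes a leucine-rich repeat adhesion protein of the cell surface, the region chr12:95713273-95714282 had 10.7 and 12.1 at DAY3, 15.2 and 14.8 at DAY6, and 17.3 and 17.5 at DAY9. Inside Pcdh9, a protocadherin, the region chr14:93701110-93702137 had 11.9 and 12 at DAY3, 15.3 and 17.7 at DAY6, and 15.0 and 16.3 at DAY9. In these 2 genes all DAY6 and DAY9 values were above both DAY3 values as deposited. Folds of single regions, here and below, are as deposited, and the order of the days can differ after scaling.

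At 2 further regions of this group the days lay closer together. Inside Ago2, the slicing component of the RNA-induced silencing complex, the region chr15:73136543-73137643 had 7.67 and 7.86 at DAY3, 8.26 and 8.47 at DAY6, and 9.78 and 9.01 at DAY9. Inside Unc79, an accessory subunit of the sodium leak channel, the region chr12:103163510-103165097 had 9.14 and 8.62 at DAY3, 10.1 and 9.61 at DAY6, and 8.98 and 10.3 at DAY9. The days did not separate at Unc79, where the lowest and highest of the 6 values were 8.62 and 10.3. Inside Vps13d, a lipid transfer protein, the folds were 9.49 and 9.60 at DAY3, 13.3 and 15.4 at DAY6, and 13.7 and 13.4 at DAY9. Inside Col6a5, a collagen VI chain, they were 11.3 and 11.1 at DAY3, 16.3 and 18.3 at DAY6, and 17.4 and 17.5 at DAY9. As deposited, both of these regions were higher in the DAY6 and DAY9 libraries than in the DAY3 libraries.

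Of the 12 regions, 5 lay outside protein-coding genes. The region nearest to the zinc-finger gene Zfp68 was 0.681 kb from it, and those nearest to Gadd45g, a stress-induced growth arrest gene, Thsd7a, Cyyr1 and Phf3 were 30.0, 60.1, 84.5 and 146 kb away. The region near Thsd7a, chr6:12809380-12810020, had 13.9 and 14.2 at DAY3, 17.5 and 19.1 at DAY6, and 17.8 and 17.0 at DAY9, the highest DAY3 values of the 12. The region near Gadd45g, chr13:51878485-51879587, had 10.9 and 11.1 at DAY3, 14.3 and 16.6 at DAY6, and 12.4 and 14.6 at DAY9. The nearest gene is given as a landmark, and whether a region acts on it was not tested.

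**Figure D2:**
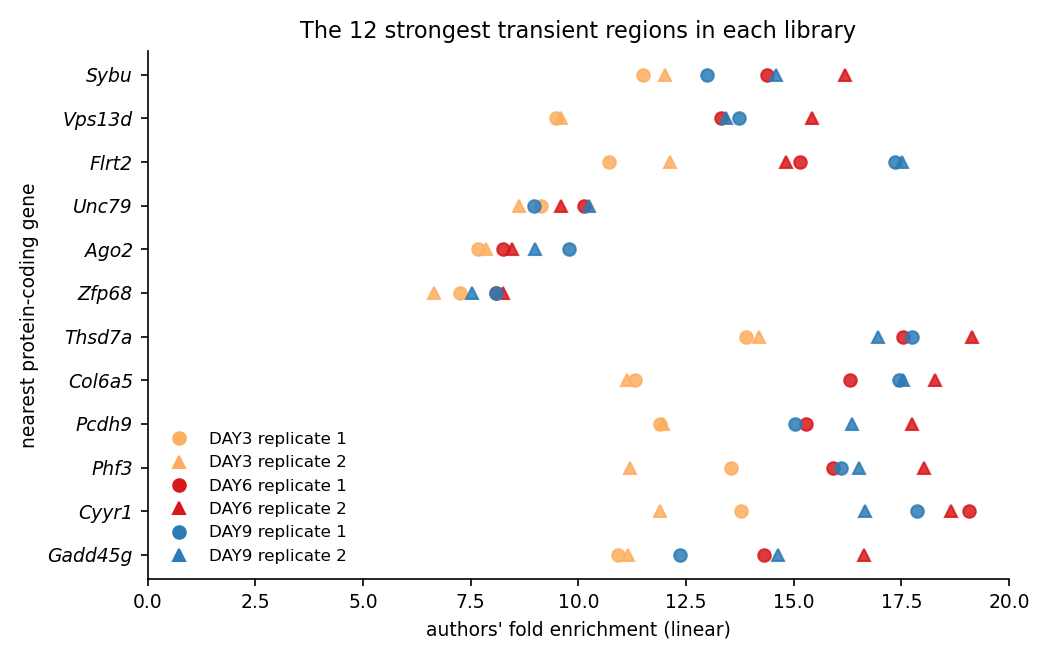
Points are the authors' fold enrichment (linear, x axis) of the 12 strongest transient regions in each of the 6 DAY3, DAY6 and DAY9 libraries (colour for day, shape for replicate), labelled by the nearest protein-coding gene (y axis). DAY3 points lie to the left in most rows, as at Flrt2 (10.7 and 12.1 at DAY3, 17.3 and 17.5 at DAY9), while at Unc79 all 6 lie between 8.62 and 10.3.

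In position, transient regions were mostly inside genes and away from gene ends. Of the 3520, 2072 (58.9%) overlapped the body of a protein-coding gene, against 51.3% of all merged regions, 53.1% of the kept regions, 52.4% of the DAY3-only and 50.9% of the DAY6 and DAY9 transient regions. Only 145 (4.12%) lay within 1 kb of either end of a gene, against 10.1% of all merged regions and 7.59% of the kept ones. In the DAY3-only and the DAY6 and DAY9 transient regions the share was 3.54% and 5.05%. The median distance to the nearest gene end was 29.7 kb, against 24.8 kb for all merged and 24.3 kb for the kept regions. It was 31.5 kb in the DAY3-only and 30.1 kb in the DAY6 and DAY9 transient regions. Open chromatin at promoters was thus rare among the 3520 regions, with 40.1% outside genes and farther than 1 kb from a gene end. Genes that held a transient region were long, with a median of 126 kb over regions, against 105 kb for the kept regions and 99 kb for all regions. For the DAY3-only and the DAY6 and DAY9 transient regions this median was 120 kb each. Median width was 804 bp for transient, 936.5 bp for kept and 509 bp for all regions, and a region widens as more libraries contribute peaks to it.

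**Figure D3:**
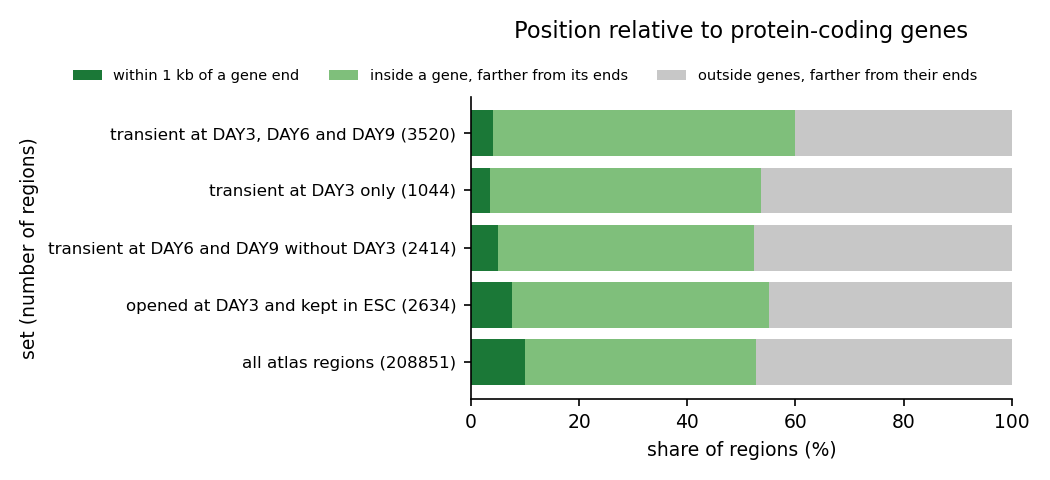
Bars give the share of regions (x axis, %) within 1 kb of a gene end, inside a gene but farther from its ends, and outside genes and farther from their ends, for 5 sets of regions (y axis, number of regions in brackets). The transient regions of all 3 days have the largest share inside genes and away from their ends among the 5 sets, 55.8% against 42.7% of all merged regions.

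Along the chromosomes the transient regions were spread widely with some grouping. Their share of a chromosome's merged regions ran from 1.35% on chromosome 10 to 1.96% on chromosome 3, and none of the 334 regions on chromosome Y was transient. The next merged region along the chromosome was also transient for 114 of the 3520 (3.24%), where their share of all regions was 1.69%. For the kept regions these values were 1.86% and 1.26%, and for DAY3-only regions 1.05% and 0.500%. The DAY6 and DAY9 transient regions had 2.28% and 1.16%, so such grouping was not particular to the regions of all the intermediate days. With gaps of at most 50 kb, 942 transient regions (26.8%) stood in 433 runs of at least 2, among them 368 of 2, 55 of 3, 9 of 4 and a single run of 5 regions. In the kept set 21.4% stood in such runs, in the DAY6 and DAY9 set 18.5% and in the DAY3-only set 8.91%, but a larger set gives shorter gaps, so the shares are not comparable on their own. With the stronger 50% of each list, 16.2% of the 1909 transient regions found by the same rule stood in runs.

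**Figure D4:**
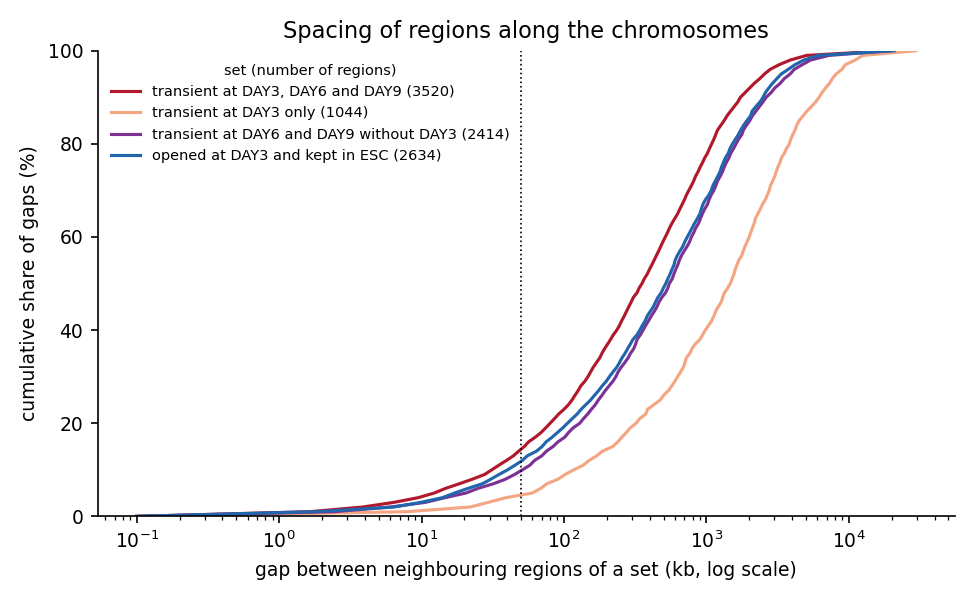
Lines give the cumulative share of gaps between neighbouring regions of a set (y axis, %) up to a given length (x axis, kb, log scale) for 4 sets of regions; the dotted line marks 50 kb. The median gap was 353 kb for the 3520 transient regions and 518 kb for the 2634 kept regions, and the order of the curves follows the number of regions in a set.

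The run of 5 spanned chr18:62804535-62870586 between Spink13, a protease inhibitor gene, and Apcdd1, an inhibitor of Wnt signalling, and held 14 merged regions, of which 2 were gained in ESC and 1 was lost from MEF. Its 5 transient regions had folds between 2.94 and 11.5. Of the 9 runs of 4, the one with the shortest span, 36 kb, lay inside Arpp21, the gene of a cAMP-regulated phosphoprotein known from neurons. All 4 merged regions in that span, chr9:112069022-112105063, were transient. The third of them, chr9:112101003-112102123, was the strongest, with 6.85 and 6.68 at DAY3, 9.89 and 7.66 at DAY6, and 8.91 and 9.14 at DAY9. At the fourth, chr9:112104559-112105063, the folds were 2.92 and 3.16 at DAY3, 3.91 and 4.56 at DAY6, and 4.23 and 3.36 at DAY9. The third region was thus more than 2 times as strong as the fourth in every DAY3 and DAY9 library. The runs at Lgr6 and Ptpn7 (chr1:135089100-135132981, 15 merged regions), inside Trabd2b (chr4:114513844-114558277, 7 merged regions) and between Rnf19a and Ankrd46 (chr15:36346267-36404282, 9 merged regions) each mixed strong and weak members, with folds from 2.96 to 10.1, from 2.60 to 13.5 and from 2.57 to 13.9. Lgr6 encodes a receptor for R-spondins, which amplify Wnt signals, and Trabd2b a protease that inactivates Wnt proteins.

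**Figure D5:**
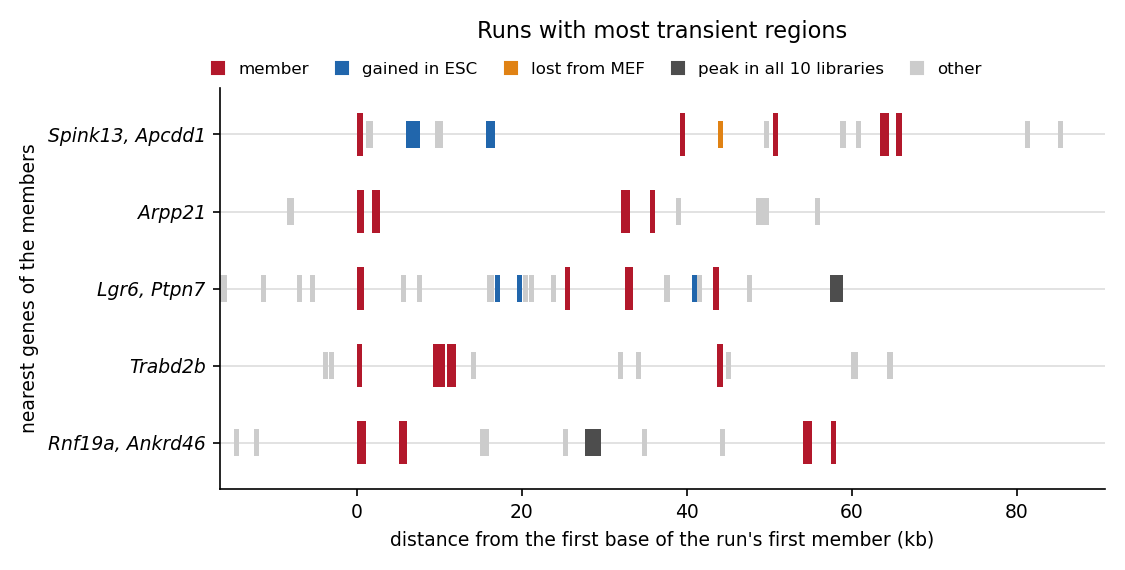
Marks show the merged regions in and around the 5 runs named in the text (y axis, nearest genes), placed by distance from the first base of the run's first transient region (x axis, kb) and coloured by class. At Arpp21 the 4 transient regions have no other region between them, while the run of 5 near Apcdd1 holds 2 regions gained in ESC and 1 lost from MEF.

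Neighbours of other classes were counted too, but not around all merged regions, so whether they were common cannot be said. Regions gained in ESC were 15.9% of all merged regions, those lost from MEF 11.1% and those with a peak in all 10 libraries 7.35%. Within 10 kb of a transient region lay a region gained in ESC relative to MEF in 27.2% of cases and a region lost from MEF in 24.7%. The kept regions had 34.4% and 23.3%. A region with a peak in all 10 libraries lay that close to 15.9% of the transient and 20.6% of the kept regions. By neighbours, the share with higher DAY9 values as deposited was 48.1% beside gained regions only, 53.6% beside lost regions only and 52.5% beside neither. It was 40.1% for the 217 regions beside both. The shares with lower DAY9 values were 25.2%, 20.4%, 21.8% and 29.0% in the same order. After scaling these lower shares were 54.6%, 52.5%, 52.2% and 62.2%.

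By nearest protein-coding gene, the transient regions spread over 2588 genes, 11.8% of the 21883 in the table, and 632 genes (2.89%) were nearest to at least 2. Magi2, a scaffold protein of cell junctions, was nearest to 10 and Cdh13, the membrane-anchored T-cadherin, to 9. Plcl1, a catalytically inactive relative of phospholipase C, was nearest to 8, and Arpp21, the recombination gene Rad51b, the teneurin Tenm4 and the homeobox gene Zfhx3 to 6 each. Some of these genes are long, as Magi2 (1485 kb) and Cdh13 (1185 kb), and others shorter, as Arpp21 (171 kb) and Abr (207 kb, nearest to 5). Per length the order differed, with 24.2 transient regions per Mb of gene body in Abr, 23.4 in Arpp21 and 20.1 in Plcl1, against 6.06 in Magi2 and 6.75 in Cdh13. Of the merged regions nearest to a gene, 13.2% were transient at Abr (5 of 38), 12.1% at Plcl1 (8 of 66), 10.5% at Cdh13 (9 of 86) and 8.77% at Magi2 (10 of 114), against 1.69% over all regions. Among the 10 genes nearest to most transient regions the share was lowest at Tenm4, 3.16% (6 of 190). These genes were chosen for their number of transient regions, which favours high shares, so the shares are a description only. Of 16 genes with 5 transient regions, Abr, Hdac4, a histone deacetylase, and Msi2, an RNA-binding protein of the Musashi family, had the most per Mb of body.

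Of 372 genes in 16 lists of cell identity genes, transcription factor families and signalling pathways, 82 (22.0%) were nearest to a transient region, against 11.8% of all protein-coding genes. Counted over merged regions the difference was gone: 118 of the 7444 regions nearest to a listed gene (1.59%) were transient, against 1.69% overall. Listed genes had more merged regions each, 7444 for 372 genes against 208851 for 21883, and the shares below are of merged regions for that reason. Genes with at least 2 transient regions were named by rule, and those with 1 were chosen after their values were seen.

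Among the pluripotency factors, 5 of 28 genes and 6 of 686 regions (0.875%) were transient, below the 1.69% of all regions, while 1.46% of these 686 were opened at DAY3 and kept. Sox2, a core factor of the stem cell state and part of the cassette, was nearest to 2 of the 6, which lay 90.4 and 89.2 kb from the gene and next to each other. The first, chr3:34558839-34559566, had 8.96 and 7.73 at DAY3, 7.86 and 8.04 at DAY6, and 6.40 and 6.98 at DAY9. The second, chr3:34559920-34560813, had 3.81 and 4.93 at DAY3, 7.0 and 6.30 at DAY6, and 7.63 and 7.66 at DAY9. At the first all DAY9 values were below both DAY3 values, and at the second all were above, so that 2 regions under 1 kb apart differed in direction with the fold as deposited. The region nearest to Klf4 was 503 kb from it, that in the body of Klf5 had 7.64 and 5.82 at DAY3, 4.81 and 4.81 at DAY6, and 3.68 and 4.83 at DAY9, and that in the body of Tet2, an enzyme that oxidizes methylated cytosine, had 4.4 and 6.51 at DAY3, 5.77 and 9.18 at DAY6, and 6.15 and 6.02 at DAY9. The DAY9 values at Klf5 were lower than both DAY3 values, and at Tet2 the days overlapped. The region nearest to Fbxo15, a marker of pluripotent cells, lay 589.7 kb from it and had 6.98 and 6.38 at DAY3, 10.2 and 9.89 at DAY6, and 13.6 and 14.2 at DAY9. Of the 6 regions 2 were higher at DAY9 than at DAY3 and 2 lower as deposited, and 2 were higher and 4 lower after scaling.

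Epithelial junction and identity genes had 9 of 41 genes and 12 of 572 regions (2.1%). The region in the body of Cdh1, which encodes E-cadherin, the adhesion protein of epithelia, was chr8:106644384-106645541, with 3.03 and 3.8 at DAY3, 9.50 and 7.35 at DAY6, and 9.04 and 9.15 at DAY9. The region in Grhl1, an epithelial transcription factor, was chr12:24590090-24590973, with 5.48 and 7.39 at DAY3, 14.3 and 13.0 at DAY6, and 14.2 and 14.8 at DAY9. In both, the DAY6 and DAY9 values were all above the DAY3 values. Ehf, an epithelial Ets factor, held 2 transient regions, of which chr2:103277493-103278213 had 3.33 and 4.4 at DAY3, 4.34 and 7.11 at DAY6, and 9.49 and 8.95 at DAY9, with both DAY9 values above both DAY3 values. Of the 12 regions 7 were higher at DAY9 than at DAY3 as deposited and 3 lower, and after scaling 4 were higher and 5 lower, near the shares of all transient regions as deposited. Keratinocyte and epidermal genes had 4 of 290 regions (1.38%), with 2 far from Tfap2a, an epidermal factor, 1 in Trp63, the master regulator of stratified epithelia, and 1 in Dsg3, a desmosome cadherin. At Trp63 the folds were 4.04 and 3.13 at DAY3, 3.60 and 4.70 at DAY6, and 8.10 and 9.25 at DAY9.

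Fibroblast and mesenchymal genes had 12 of 34 genes and 14 of 997 regions (1.40%). By the rule none of these regions had a peak in MEF, where all 8 fibroblast markers had a peak at a gene end. Fbn1, which encodes the matrix protein fibrillin, held 2: chr2:125438215-125438865 had 12.7 and 10.9 at DAY3, 14.4 and 14.1 at DAY6, and 6.24 and 8.84 at DAY9. The other, chr2:125389287-125390157, had 8.04 and 7.53 at DAY3, 9.27 and 7.60 at DAY6, and 3.72 and 4.42 at DAY9. The region 12.1 kb from Prrx1, a mesenchymal homeobox factor, had 8.09 and 8.29 at DAY3, 11.6 and 11.6 at DAY6, and 3.60 and 3.58 at DAY9. At Prrx1 and at both Fbn1 regions the DAY9 values were lower than all DAY3 and DAY6 values. The region in Zeb1, a repressor of epithelial genes, had 9.36 and 10.1 at DAY3, 5.61 and 3.91 at DAY6, and 4.92 and 5.02 at DAY9. The region in Col5a2, a fibrillar collagen gene, had 9.99 and 8.61 at DAY3, 9.88 and 12 at DAY6, and 6.72 and 6.21 at DAY9. Both were lower at DAY9 than at DAY3, and at Zeb1 the DAY6 values were already low. Regions nearest to Snai1, Cdh11 and Col6a3 went the other way as deposited. That nearest to Snai1 had 4.12 and 3.51 at DAY3 and 9.46 and 9.73 at DAY9. That nearest to Cdh11, 905 kb from it, had 5.55 and 6.38 at DAY3 and 15.6 and 15.8 at DAY9. In Col6a3 the values were 6.74 and 8.81 at DAY3 and 11.3 and 12.2 at DAY9. Of the 14 regions 8 had both DAY9 values below both DAY3 values (10 after scaling) and 5 above (2 after scaling), where 22.7% and 51% of all transient regions did so as deposited and 53.4% and 21.6% after scaling.

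In the Bmp, Nodal and Tgf-beta pathway, whose ligands act on paired receptor kinases and Smad factors, 14 of 34 genes had a transient region, and 18 of 910 regions (1.98%) were transient. Among ligands, the region nearest to Bmp6, at 34.9 kb, had 9.03 and 10.3 at DAY3, 12.8 and 7.49 at DAY6, and 6.85 and 7.93 at DAY9. Of the receptors, Tgfbr1 and Bmpr1a held 1 each and Tgfbr2 held 2. The region in Tgfbr1 had 11.6 and 10.8 at DAY3, 9.88 and 11.7 at DAY6, and 10.1 and 7.29 at DAY9, and that in Bmpr1a had 8.36 and 7.93 at DAY3, 11.1 and 8.25 at DAY6, and 5.64 and 4.06 at DAY9. Both DAY9 values were below both DAY3 values at Tgfbr1, at Bmpr1a and at Bmp6. Of the Smad factors, Smad3 and the inhibitory Smad6 had 2 each and Smad2 had 1. The region in the body of Smad2, higher at each later day, had 4.92 and 5.26 at DAY3, 8.08 and 8.29 at DAY6, and 16.2 and 16.5 at DAY9. At Smad6 the region chr9:63911869-63912620 had 6.10 and 7.12 at DAY3, 12.5 and 11.4 at DAY6, and 9.56 and 9.47 at DAY9. The pathway was mixed as deposited: of the 18 regions 9 were lower at DAY9 than at DAY3 and 7 higher, where 22.7% and 51% of all transient regions were, and after scaling 14 were lower and 2 higher, where 53.4% and 21.6% of all were. Tgfbr1, Tgfbr2 and Tgfb2 are in the fibroblast list as well, so the counts of these lists are not separate.

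In the other signalling lists, the Wnt pathway had 8 of 647 regions (1.24%), the Fgf and Erk pathway 10 of 472 (2.12%) and the Tead and Yap pathway 7 of 383 (1.83%). In the Wnt pathway 6 of the 8 were higher at DAY9 than at DAY3 and 2 lower as deposited, and after scaling 2 were higher and 3 lower, where 51% and 22.7% of all transient regions were higher and lower as deposited and 21.6% and 53.4% after scaling. Znrf3, a ligase that removes Wnt receptors from the cell surface, held a region with 4.28 and 3.51 at DAY3, 10.6 and 8.12 at DAY6, and 13.4 and 14.1 at DAY9. Tcf7l2, a nuclear effector of Wnt signals, held 2, of which chr19:55754081-55754775 had 5.70 and 4.36 at DAY3, 9.12 and 6.68 at DAY6, and 7.80 and 8.14 at DAY9. The Znrf3 region was more than 2 times as strong in the DAY9 as in the DAY3 libraries, and at Tcf7l2 the DAY6 and DAY9 values overlapped. Of the Fgf receptors, Fgfr1 and Fgfr2 were nearest to 2 regions each, and the inhibitor Spry2 to 3, at 183 to 270.2 kb from it. In the Tead and Yap list Wwc1, which encodes an upstream activator of the Hippo kinases, held 2, and chr11:35927113-35927896 had 6.83 and 6.54 at DAY3, 8.17 and 11.8 at DAY6, and 4.16 and 4.22 at DAY9, lower at DAY9 than at any earlier day.

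Of the factor families, Sox genes had 13 of 573 regions (2.27%), Klf and Sp genes 9 of 652 (1.38%) and AP-1 genes 3 of 124 (2.42%). The 3 AP-1 regions were all nearest to Jun, an AP-1 subunit, 139 to 197 kb from it and in a single run. The strongest, chr4:95209064-95210359, had 9.27 and 11.8 at DAY3, 12.3 and 11.1 at DAY6, and 12 and 11.5 at DAY9. The outermost, chr4:95249696-95250494, had 7.65 and 8.59 at DAY3, 5.84 and 7.63 at DAY6, and 6.48 and 5.26 at DAY9. The third, chr4:95191554-95192170, had 4.28 and 4.15 at DAY3, 11.1 and 11.6 at DAY6, and 9.22 and 9.04 at DAY9. The days overlapped at the strongest, the outermost was lower at DAY9 than at DAY3, and the third was more than 2 times as strong in every DAY6 and DAY9 library as in either DAY3 library. Sox9, a factor of cartilage and several epithelia, was nearest to 3, and the one at 11.7 kb, chr11:112769609-112770486, had 7.93 and 7.59 at DAY3, 11.3 and 12.1 at DAY6, and 10.8 and 11.3 at DAY9. As deposited, both DAY9 values there were above both DAY3 values. Sox5 held 3 and Sox6 held 2, of which chr7:115732680-115733420 had 9.14 and 9.97 at DAY3, 17.7 and 11.9 at DAY6, and 15.6 and 17.9 at DAY9. The other Sox6 region, chr7:115721134-115722453, had 10.2 and 8.13 at DAY3, 10.0 and 5.71 at DAY6, and 4.68 and 4.54 at DAY9, so that the 2 regions of this gene differed in direction as deposited. Of the 13 Sox regions 7 were higher and 4 lower at DAY9 than at DAY3 as deposited, and 5 were higher and 5 lower after scaling. Klf12, a repressor of the family, held 3, with folds between 3.41 and 7.82.

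Of the other lineages, neural genes had 14 of 732 regions (1.91%), in 6 of 23 genes, with 4 in Nrxn3, which encodes a synaptic adhesion protein, and 3 near Pou3f1, a neural Pou factor. The strongest near Pou3f1, chr4:124497578-124498460, lay 159 kb from the gene and had 10.0 and 8.76 at DAY3, 14.5 and 15.3 at DAY6, and 15.2 and 16.0 at DAY9. Blood genes had 6 of 222 regions (2.70%), 4 of them nearest to Runx1, a blood and mesenchymal factor. None of the 6 was higher at DAY9 than at DAY3, where 51% of all transient regions were as deposited and 21.6% after scaling. Lower at DAY9 were 2 as deposited and all 6 after scaling, where 22.7% and 53.4% of all transient regions were. In Runx1 the strongest region, chr16:92679715-92680684, had 7.24 and 8.33 at DAY3, 7.0 and 7.84 at DAY6, and 3.84 and 4.90 at DAY9. Both DAY9 values were below the DAY3 and DAY6 values there. Fut9, whose product makes the SSEA1 epitope used in the sort, held a region with 5.89 and 4.65 at DAY3, 3.42 and 3.59 at DAY6, and 4.86 and 5.19 at DAY9, and DAY3 and DAY9 overlapped. Trophoblast genes had 2 of 273 regions (0.733%), endoderm genes 1 of 339 (0.295%) and housekeeping genes 0 of 83. All of these shares stand beside 1.69% of all regions, from counts of 14 or fewer, and no test was run on them.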

How the data were processed

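ATAC-seq peak lists of 10 mouse libraries, deposited by the authors with 1 list per library, were the only data used. The submitters' processing notes name Bowtie2 2.3.2, MACS2 2.1.1, deepTools 2.3.6 and the build mm10, without roles; handling of duplicate reads and transposase offset is not given in the sources used here. Each deposited list gives a score, a fold enrichment (a linear ratio of summit to local background) and the −log10 of the p-value and of the q-value, all the authors' own. The −log10 of the p-value ranked peaks within a list, and the fold described regions. Peak numbers run with gaps (58.2% to 75.9% remained), so peaks had been removed by a filter that is not stated. Read depth is unknown; the background pileup that fold and −log10 p imply was taken as relative depth.

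Overlapping peaks (1 bp) were merged with Python 3.11.15, numpy 2.4.6 and pandas 2.3.3. Where a library had several peaks in a region, the strongest was used. Genes came from a RefSeq table of the same build with 21883 protein-coding genes, without strand or exons, so distances are to either gene end and exonic or intronic position was not analysed here. Promoter windows and miRNAs came from RefSeq (GRCm38.p6); the table has a window for 17491 of these genes, and windows on chromosome 18 were not analysed here. No genome was used here, so motifs were searched in promoter windows only and the planned 200, 300 and 500 bp windows were not run. The lists carry no summits (100% of the peaks), so windows of 500 bp were set on peak midpoints. Merging was tested on simulated data.

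The transient regions and the gene lists were chosen with earlier results of these data known. Named were the 12 regions with the highest lowest percentile over the 6 intermediate libraries, the 5 runs with most members (ties by the shorter span), the 10 genes nearest to most members (ties by members per Mb) and the list genes nearest to at least 2. Markers and sequences chosen otherwise are stated as such. Nothing in the labels says that the 2 libraries of a stage came from separate cultures. The alternatives tried were stricter peak thresholds, other overlap and distance rules, other region definitions, the mean of several peaks, another gene assignment and leaving out each library. Some list genes that this naming rule would include are not reported here.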

Additional observations from a re-analysis of the deposited data

How the results depend on the processing

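Results were set beside their values under other settings that did not leave out a library, in 54 comparisons. In 26 the value was within the spread or 1.5 times of the count reported, in 27 it moved beyond that and in 1 the sign reversed. No paired analysis was possible because the results come from counts and shares with no test. With the stronger 50% of each list, 1909 transient regions were found, which need not all be among the 3520, 5.81% were at a gene end, 16.2% stood in runs, and the log2 ratio of transient to kept regions was 0.0418 at DAY3, −0.193 at DAY6 and −0.322 at DAY9. With 45497 peaks in every list these values were 5.89%, 28.4%, 0.0529, −0.230 and −0.377. With peaks covering at least 50% of a region, 5.17% were at a gene end and the ratios were −0.0326, which reverses the sign at DAY3, −0.267 and −0.456. With no MEF or ESC peak within 1 kb they were 3.08%, 21.9% in runs, 0.0523, −0.298 and −0.524. Within 5 kb, 14.9% were at a gene end. Runs held 35.4% with a peak in either library of DAY3 and of DAY9, 8.38% with gaps of at most 10 kb and 39.9% with 100 kb. With the mean of several peaks the median fold was 5.22 at DAY3 and 6.23 at DAY9, and the ratios were 0.0374 at DAY3 and −0.551 at DAY9. These causes were not tested.

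Leaving out each library in turn gave 3673 to 4149 transient regions, 57.8% to 59.4% inside genes, 4.06% to 4.46% at a gene end, 27.4% to 30.7% in runs and 82 to 99 list genes. The median fold was 4.78 to 5.25 at DAY3, 6.90 to 7.40 at DAY6 and 5.97 to 6.47 at DAY9. The ratios were −0.0084 to 0.131 at DAY3 (−0.0084 without DAY6 replicate 2 and −0.0075 without ESC replicate 1), −0.399 to −0.204 at DAY6, the last without MEF replicate 1, and −0.613 to −0.438 at DAY9. Comparisons with the kept regions under these settings, and the windows of 500 bp on midpoints, were chosen after seeing the data. Depth limits the absence of a peak in MEF and ESC: 70.4% of the transient regions were above the highest listing limit in all 6 intermediate libraries.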

Other observations

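Genes of small RNAs gave further landmarks. Of 1005 miRNA hairpins in the RefSeq table, those of Mir6240, Mir3109, Mir8103 and Mir6541 overlapped a transient region, and Mir193b lay 117 bp from the region chr16:13449719-13450484. Mir193b had authors' folds of 2.84 and 3.22 at DAY3, 6.75 and 7.57 at DAY6, and 8.56 and 9.77 at DAY9 at that region, with every later day above the day before. Its mature 3′ arm, shown because a miRNA finds its targets through the seed (bases 2 to 8, in capitals), has this sequence:

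miR-193b-3p: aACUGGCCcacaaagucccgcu

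Of the 4 hairpins that overlapped a transient region, that of Mir8103 had the highest DAY3 folds, 8.38 and 8.58, with 7.38 and 5.79 at DAY9. These hairpins were named after their values were seen, and whether the miRNAs are transcribed was not analysed here.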
